A study of Mus musculus with 6 samples.

Results

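Heart RNA was described for 46 genes of the interferon response and of MHC class I antigen presentation, taken by gene name from a table of 54532 genes. All 46 were found, 1 row each. Of these, 33 reached 1 FPKM or more in at least 3 of the 6 hearts and were tested along with all other such genes, 12431 in total, and 13 lay below that filter. FPKM here is the deposited value per kilobase of gene and per a library scale set by the authors. The list was drawn up by name, with earlier results of these data known, so its counts and medians are given beside those of all genes tested and carry no test of their own.

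The hearts came from wild-type ICR mice, an outbred stock, labelled day 4. In the control group (n = 3) the mothers received an intraperitoneal injection of citric acid during pregnancy, and in the STZ group (n = 3) the same route was used for STZ, read here as streptozotocin, which destroys insulin-producing cells and is the series' means of modelling gestational diabetes. The dose, the day of injection, maternal glucose and the litter of each pup are not stated in the sources used here, so hearts of a group may be littermates and the p-values measure the spread between these 6 samples. The comparison asks how this set of genes stood in the hearts of offspring of STZ-injected mothers.

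Interferons are secreted when a cell senses foreign or misplaced nucleic acid. They bind surface receptors whose kinases phosphorylate transcription factors of the STAT family, and these enter the nucleus with IRF9 to bind a response element in the promoters of many target genes. The targets include antiviral effectors, the GTPases of cell-autonomous immunity and the machinery that loads peptides on MHC class I. A low tonic signal keeps some of these genes on in uninfected tissue, and cardiomyocytes, fibroblasts, endothelial cells and resident macrophages of the heart all carry the receptors.

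The libraries held 16707268 to 18082599 recovered whole reads. Cardiomyocyte markers were present at high level in every heart, with 6 genes summing to 5674 to 14210 FPKM. Control 2 stood apart. It had the lowest cardiomyocyte sum, and its 4 atrial markers summed to 6050 FPKM against 31.0 to 114 FPKM in the other 5 libraries. The 6 fixed lymphocyte markers summed to 13.8 FPKM in control 2 and to 0.413 to 0.978 FPKM elsewhere. Within that list the T cell genes Cd3d and Cd3e were at 9.53 and 3.42 FPKM, while the B cell genes Cd79a and Ms4a1 were at 0.193 and 0.068 FPKM in that library. Of 10 T cell and thymocyte genes chosen after these values were seen, all 10 were highest in control 2, at a sum of 142 FPKM against 1.01 to 3.05 FPKM, with Rag1, the recombinase gene of developing lymphocytes, at 25.5 FPKM and Cd8b1 at 31.5 FPKM. The 10 macrophage markers summed to 112 FPKM in control 2 and 44.6 to 56.8 FPKM in the rest. Control 3 had Xist at 70.6 FPKM, against at most 0.0541 FPKM in the other 5, and was the only library with no reads of the Y-linked Ddx3y. This is the pattern of a female heart. The other 5 hearts, with all 3 STZ hearts among them, had the male pattern, so sex was not balanced between the groups. The part of sex in the members' differences was not tested. Because control 2 stood apart, the main results are given with and without it. Without it, controls 1 and 3 remain. Among the atrial markers, Myl7 was at 3930 FPKM in control 2 and 2.92 to 18.3 FPKM elsewhere. Sln was at 278 FPKM in control 2 and at most 0.866 FPKM elsewhere. In bulk heart RNA, the parts of the heart taken, the number of cells of a type and the RNA per cell cannot be told apart.

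No member passed the limma test at a Benjamini-Hochberg (BH) adjusted p of 0.05, against 3 of the 12431 genes tested, or 0.0241%. The smallest adjusted p of a member was 0.922, shared by many members because BH adjustment ties neighbouring ranks. Members tended to have lower values in STZ hearts: the log2 ratio, STZ over control, on the log2(FPKM + 1) scale was below 0 for 25 of 33 tested members, or 75.8%, where 42.3% of all genes tested were below 0. The median was -0.17 for the members and 0.03 for all genes. At an unadjusted p under 0.05 there were 4 lower members (Rtp4, Isg15, Rsad2 and Bst2), or 12.1%, against 1.42% of all genes, and 0 higher members, against 1.17% of all genes. All 3 STZ values lay below all 3 control values at 3 members, Isg15, Bst2 and Rtp4, or 9.09% against 3.62% of all genes, and no tested member was higher in all STZ hearts, which 4.92% of all genes were.

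Control 2 carried the highest value of 19 of the 33 tested members. Without it, 23 of 33 members, or 69.7%, had a log2 ratio below 0, against 50.6% of all genes, and the members' median was -0.06 against -0.0016 for all genes. The difference was nearer 0 in that fit for 24 of the 33 members. Of the 25 lower members 5 turned higher (Ifitm1, Ifitm2, Psmb8, Tap2 and B2m), and 3 of the 8 higher ones turned lower (Ifit2, Parp14 and Ddx58). In the 5 remaining hearts Isg15, Bst2, Rtp4 and Lgals3bp were lower in every STZ heart than in both controls, 4 of 33 or 12.1%, where 8.55% of all genes did so.

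**Figure D1:**
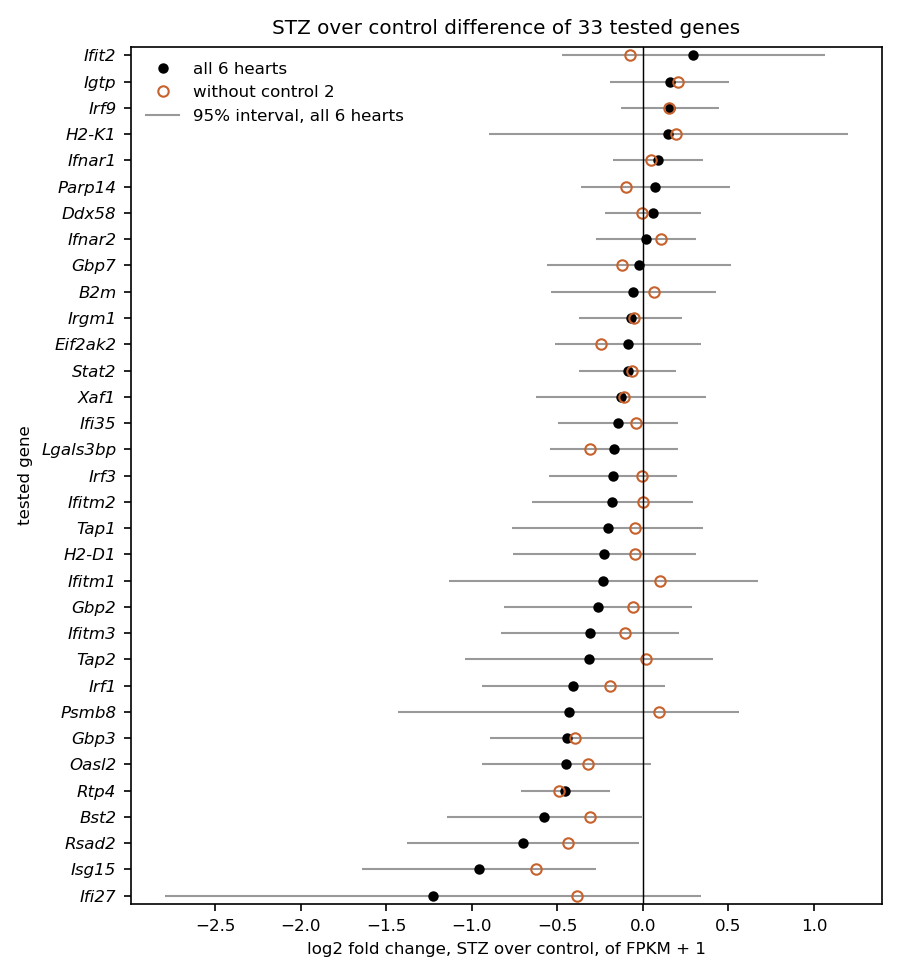
Log2 ratio, STZ over control, of FPKM + 1 (x axis) for the 33 tested genes (y axis, sorted). Black points and grey bars give the fit to all 6 hearts with its 95% interval, and open points the fit without control 2. The bars of 4 genes (Rtp4, Isg15, Rsad2 and Bst2) lie below 0 and those of the other 29 hold 0.

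The members spanned a wide range of levels per length. B2m, the invariant light chain of MHC class I, was the most abundant, followed by the membrane proteins Ifitm3 and Ifitm2, and these 3 were the only members with a mean of at least 50 FPKM. H2-D1, Bst2, Ifnar1, H2-K1, Ifi27 and Lgals3bp had means between 10 and 50 FPKM, 25 members lay between 1 and 10 FPKM, and 12 were under 1 FPKM. Classical induced genes such as Ifit1, Ifit3, Oas1a, Oas2, Usp18, Zbp1 and Cxcl10 were among the last 12. Neighbours in this order mostly differed by less than their spread over the hearts, as with Ifitm3 (47.2 to 91.4 FPKM) and Ifitm2 (50.04 to 80.4 FPKM).

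**Figure D2:**
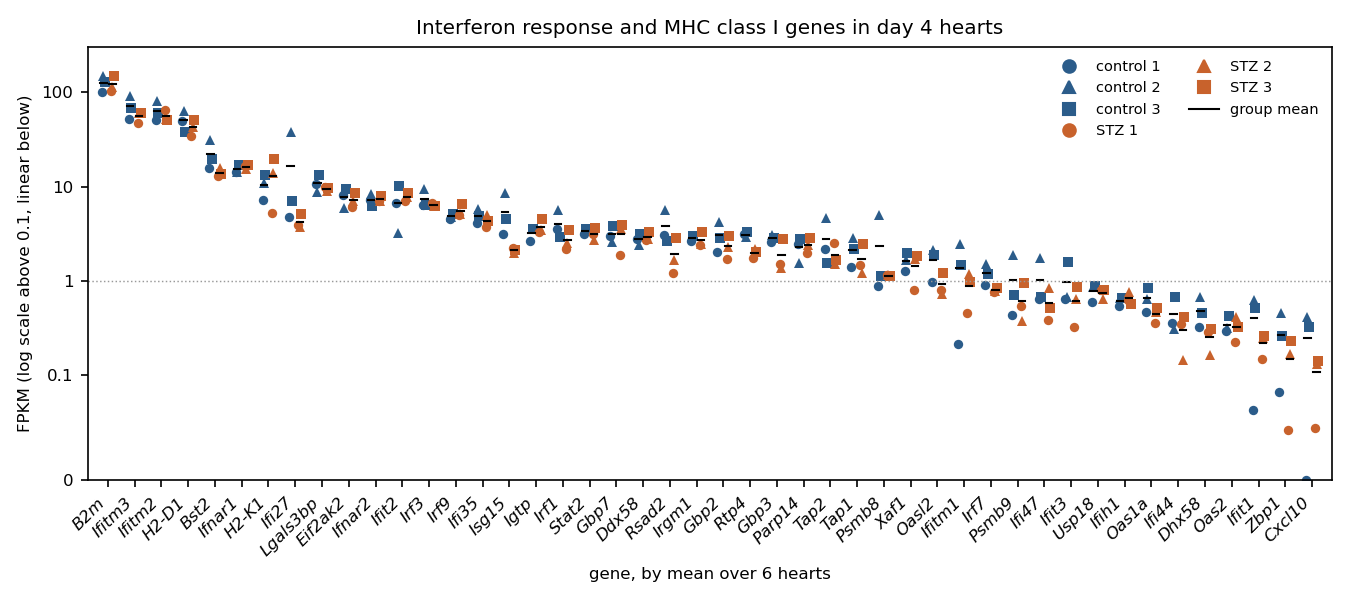
FPKM of all 46 genes in each heart (y axis, logarithmic above 0.1 and linear below), ordered by the mean over 6 hearts (x axis). Blue marks control hearts, orange STZ hearts, the symbol the replicate number and the black line the group mean. The dotted line is the 1 FPKM filter, and 34 genes have a mean above it.

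Of the sensors of foreign nucleic acid, only Ddx58, which encodes the RNA helicase RIG-I, was tested. It stood at 2.76, 2.43 and 3.13 FPKM in control 1 to 3 and at 2.70, 2.81 and 3.27 FPKM in STZ 1 to 3, so the groups overlapped, with a log2 ratio of 0.06 (SE 0.119) that was -0.0062 without control 2. Ifih1, the gene of the related helicase MDA5, ranged from 0.538 to 0.758 FPKM over the 6 hearts. Zbp1, a sensor of left-handed nucleic acid, ranged from 0.0478 to 0.464 FPKM. Dhx58, encoding the regulator LGP2, was below the filter, at 0.327, 0.672 and 0.454 FPKM in the controls and 0.292, 0.164 and 0.313 FPKM in the STZ group. Every STZ value of Dhx58 was below every control value, but the values rested on 9 to 47 reads per library, and the lowest control and highest STZ values were 18 and 19 reads. An antisense gene overlaps Dhx58, and the strand setting of the counting is not given in the sources used here.

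The receptor subunits of type I interferon did not differ beyond their spread. Ifnar1 was at 15.2 ± 1.62 FPKM in the controls and 16.2 ± 0.661 FPKM in the STZ group, and Ifnar2 at 7.23 ± 1.001 and 7.32 ± 0.564 FPKM (SD, n = 3 each). Both receptor genes lie on chromosome 16 and had log2 ratios of 0.09 and 0.02, the latter turning to -0.01 with median-ratio scaling and to -0.04 with the scale of recovered reads. Among the transcription factors, Stat2, the STAT that joins IRF9 in the complex, was at 3.13, 3.54 and 3.52 FPKM in the controls and 3.12, 2.69 and 3.62 FPKM in the STZ group, and STZ 3 was the highest of all 6. Its log2 ratio was -0.09 (SE 0.119). Irf9, the DNA-binding partner, was at 4.83 ± 0.322 and 5.53 ± 0.822 FPKM, and Irf3, a factor activated downstream of the sensors, at 7.43 ± 1.82 and 6.36 ± 0.219 FPKM. Rnf31 overlaps Irf9 on the same strand, so some reads could belong to either gene. Irf3 was highest in control 2, at 9.52 FPKM, and its log2 ratio of -0.17 was -0.0029 without that library.

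Irf1, which drives many genes of antigen presentation, stood at 3.56, 5.62 and 2.90 FPKM in the controls and 2.21, 2.50 and 3.50 FPKM in the STZ group. The groups overlapped, since STZ 3 exceeded control 3, and the log2 ratio moved from -0.41 (SE 0.225) to -0.19 without control 2. Irf7, itself an interferon target and the amplifier of the response, was below the filter, since 2 of its 6 values reached 1 FPKM. It was at 0.912, 1.52 and 1.19 FPKM in control hearts, or 58, 123 and 79 reads, and at 0.759, 0.788 and 0.842 FPKM in the STZ group, or 51, 50 and 59 reads. All 3 STZ values of Irf7 lay below the 3 control values, by a margin of 0.912 against 0.842 FPKM between the nearest hearts. Over the 6 tested receptors and transcription factors, 3 were higher and 3 lower, with a median log2 ratio of -0.03 and of 0.02 without control 2. Of all genes tested, 42.3% were lower, and 50.6% without control 2.

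Of the 9 antiviral effectors tested, 8 were lower, with a median log2 ratio of -0.31, and of -0.24 without control 2, where 7 of 9 were lower. The shares of all genes tested that were lower were 42.3% and, without control 2, 50.6%. Isg15 encodes a ubiquitin-like protein that is conjugated to other proteins during the response. It was at 3.14, 8.60 and 4.53 FPKM in control 1 to 3 and at 2.23, 1.97 and 2.14 FPKM in STZ 1 to 3. The STZ hearts lay close together and all below the lowest control heart, while control 2 was well above the other controls. This rested on 40, 139 and 60 reads in control and 30, 25 and 30 reads in STZ hearts. The log2 ratio was -0.96 (SE 0.287), with a limma BH-adjusted p of 0.922, an exact two-sided permutation p of 0.1, which is the smallest that 3 against 3 hearts allow, and a value of -0.62 without control 2. A processed copy of Isg15 on chromosome 17, 95.2% identical over 482 bases, was at 0, 0.097 and 0.356 FPKM in the controls and 0.468, 0.619 and 0 FPKM in the STZ group, so part of the reads could have been assigned to either.

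Bst2 encodes tetherin, which holds budding virions at the cell surface. It was at 15.8, 31.3 and 19.5 FPKM in the controls and 12.8, 15.7 and 13.6 FPKM in the STZ group. The nearest hearts, control 1 at 15.79 and STZ 2 at 15.68 FPKM, all but met, and with the scale of recovered reads they crossed, at 15.56 and 15.78. The log2 ratio was -0.58 (SE 0.239; limma BH-adjusted p = 0.922) and -0.31 without control 2. Rsad2 encodes viperin, an enzyme that makes a chain-terminating nucleotide. It was at 3.07, 5.64 and 2.62 FPKM in the controls and 1.22, 1.69 and 2.82 FPKM in the STZ group. STZ 3 exceeded control 3 and the groups overlapped. The log2 ratio of Rsad2 was -0.70 (SE 0.285; limma BH-adjusted p = 0.922) and -0.44 without control 2.

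Rtp4, a chaperone-like gene induced by type I interferon, differed most evenly. It was at 3.12, 2.90 and 3.30 FPKM in the controls and 1.77, 2.21 and 2.02 FPKM in the STZ group, with 112, 132 and 123 reads against 67, 79 and 80 reads. Both groups were tight, and the lowest control heart was above the highest STZ heart. Its log2 ratio was -0.45 (SE 0.109; limma BH-adjusted p = 0.922), with an exact two-sided permutation p of 0.1. Its unadjusted limma p of 0.00452 was the lowest of any member. The difference did not rest on control 2, without which it was -0.49. Rtp4 (GRCm38 chromosome 16, 23520291 to 23614222, plus strand) is overlapped on the other strand by Masp1, which was at 1.76, 2.52 and 1.85 FPKM in the controls and 2.50, 2.27 and 2.24 FPKM in the STZ group, and shares 296 identical bases with Gm45338, which was at 0.091 to 0.259 FPKM.

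**Figure D3:**
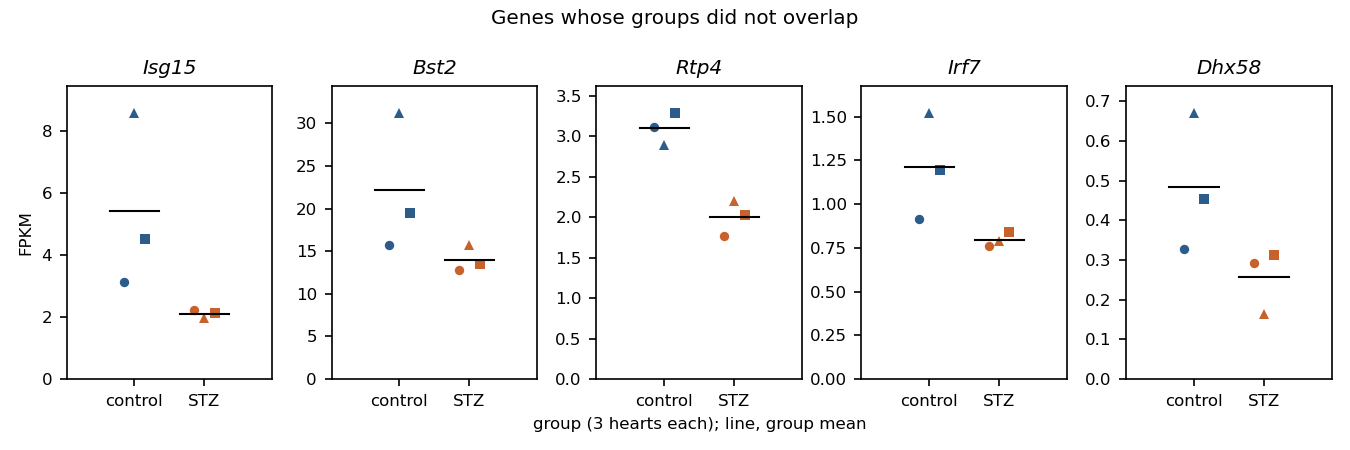
FPKM (y axis, from 0) of the 5 genes whose 3 STZ values all lay below the 3 control values. Points are single hearts, the symbol the replicate number (circle 1, triangle 2, square 3) and the line the group mean. Isg15, Bst2 and Rtp4 were tested, 9.09% of tested members against 3.62% of all genes tested. Irf7 and Dhx58 were below the filter and not tested, and no such share was computed for genes below the filter. With the scale of recovered reads, control 1 and STZ 2 crossed for Bst2, at 15.56 and 15.78 FPKM.

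The promoters of the members were searched for the response element. RefSeq promoters on GRCm38.p6, from 250 bases before to 50 after the annotated start, were found for 38 of the 46 members. Rtp4 and Dhx58 were among those with none. The core of the interferon-stimulated response element was searched as GAAANNGAAA on both strands, and the gamma-activated site, another element of interferon targets, as TTCNNNGAA, which reads the same on both strands. The response element core was present for 19 of 38 members, or 50% of genes, against 3.99% of 27025 genes with a promoter of this length. The gamma-activated site was present for 12 of 38, or 31.6%, against 9.55%. Irf7, whose groups did not overlap, had neither motif in the stretch searched. This does not show that Irf7 lacks such an element in other letters or outside that stretch. By role, the response element core was found for 9 of 12 antiviral effectors and 5 of 6 GTPases, and for 1 of 6 antigen presentation genes and 1 of 7 receptors and transcription factors. Among tested members, 12 of the 14 with the core were lower in STZ hearts (median log2 ratio -0.13), as were 10 of the 15 with a promoter but no response element core (median -0.17). A match describes letters in the reference sequence only.

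The 150 bases before the start of Isg15 (chr4:156200819-156200968, minus strand), Bst2 (chr8:71537473-71537622, minus strand) and Rsad2 (chr12:26456453-26456602, minus strand) are shown because these effectors had unadjusted p-values under 0.05, and those of B2m (chr2:122147537-122147686, plus strand) because it was the most abundant member and did not differ beyond its spread. Each is given 5′ to 3′ along the gene, on GRCm38.p6, with the letters of either motif in capitals. Isg15 holds 3 overlapping cores, the first starting 78 bases before the gene. Bst2 holds 2, the first starting 130 bases before the gene and overlapping a gamma-activated site. Rsad2 holds 1 on the opposite strand and B2m 1, near the far end of the stretch.
Isg15: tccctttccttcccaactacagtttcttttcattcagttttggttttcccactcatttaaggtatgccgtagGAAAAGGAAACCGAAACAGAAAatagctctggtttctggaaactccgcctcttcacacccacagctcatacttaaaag
Bst2: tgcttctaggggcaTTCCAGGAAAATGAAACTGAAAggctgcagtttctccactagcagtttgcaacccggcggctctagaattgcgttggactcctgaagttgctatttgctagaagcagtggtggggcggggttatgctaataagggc
Rsad2: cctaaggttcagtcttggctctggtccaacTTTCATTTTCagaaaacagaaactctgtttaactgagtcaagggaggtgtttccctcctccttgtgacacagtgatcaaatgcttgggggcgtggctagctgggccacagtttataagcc
B2m: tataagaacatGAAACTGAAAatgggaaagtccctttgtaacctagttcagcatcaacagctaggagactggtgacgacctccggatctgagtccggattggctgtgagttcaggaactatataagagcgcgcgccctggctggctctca

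The other effectors overlapped between the groups. Ifitm2 and Ifitm3 encode small membrane proteins that block virus entry and lie in 1 cluster on chromosome 7, with Ifitm1 between them. Ifitm3 was at 52.5, 91.4 and 67.5 FPKM in the controls and 47.2, 59.6 and 60.03 FPKM in the STZ group (log2 ratio -0.31, SE 0.22, and -0.11 without control 2). Ifitm2 was at 50.3, 80.4 and 60.05 FPKM in the controls and 64.03, 52.0 and 50.04 FPKM in the STZ group (log2 ratio -0.18, and 0.0011 without control 2). In both genes control 2 was the highest heart. Ifitm1 of the same family ranged from 0.217 to 2.44 FPKM, with control 1 lowest and control 2 highest, so its value rested on 4 to 57 reads per heart. Stretches of these 3 genes match each other or other genes at 79.3% to 97.5% identity over 212 to 547 bases, and their reads are uncertain to that extent.

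Ifit2, which binds viral RNA, differed in direction from most effectors. It was at 6.68 ± 3.39 FPKM in the controls and 7.78 ± 0.693 FPKM in the STZ group, and control 2 held the lowest value, 3.25 FPKM, so its log2 ratio of 0.30 turned to -0.08 without that library. Ifit1 and Ifit3, which lie nearby on chromosome 19, were below the filter. Ifit1 was at 0.0671, 0.634 and 0.516 FPKM in the controls and 0.148, 0.247 and 0.264 FPKM in the STZ group, on 3 to 36 reads. Ifit3 was at 0.647, 0.67 and 1.60 FPKM in the controls and 0.322, 0.648 and 0.865 FPKM in the STZ group, and it shares 97.8% of 1700 bases with its copy Ifit3b. For both genes the spread among control hearts was wider than the difference between the groups. Oasl2, of the family of oligoadenylate synthetases, was at 1.65 ± 0.595 and 0.922 ± 0.267 FPKM (log2 ratio -0.45, SE 0.207, and -0.32 without control 2). Oas1a (0.358 to 0.848 FPKM) and Oas2 (0.227 to 0.423 FPKM) of that family and Usp18 (0.596 to 0.88 FPKM), the protease that removes ISG15, were not tested. Eif2ak2, the gene of the kinase PKR that halts translation on double-stranded RNA, was at 7.81 ± 1.71 and 7.25 ± 1.23 FPKM.

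The interferon-induced GTPases, which attack the vacuoles of intracellular pathogens, lay mostly under 5 FPKM. Of the 5 tested, 4 were lower, where 42.3% of all genes tested were, with a median log2 ratio of -0.07 and -0.06 without control 2. Gbp2, Gbp3 and Gbp7 lie close together on chromosome 3. Gbp3 differed most, at 2.60, 3.09 and 2.85 FPKM in the controls and 1.52, 1.39 and 2.76 FPKM in the STZ group, where STZ 3 alone reached the control range (log2 ratio -0.44, SE 0.189, and -0.40 without control 2). Gbp2 was at 3.04 ± 1.09 and 2.33 ± 0.64 FPKM, and its log2 ratio moved from -0.26 to -0.06 without control 2. Gbp7 was at 3.12 ± 0.622 and 3.13 ± 1.09 FPKM, and the lowest value of all 3 Gbp genes in STZ hearts belonged to STZ 1 or STZ 2. Of the immunity-related GTPases on chromosome 11, Igtp was at 3.26 ± 0.505 and 3.75 ± 0.659 FPKM and Irgm1 at 2.88 ± 0.21 and 2.71 ± 0.485 FPKM. Ifi47 was not tested, at 0.386 to 1.76 FPKM with control 2 the highest.

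MHC class I presents peptides cut by the proteasome and pumped into the endoplasmic reticulum by the transporter TAP. B2m was at 101, 147.5 and 129 FPKM in the controls and 103, 113 and 146 FPKM in the STZ group, a full overlap (log2 ratio -0.06, SE 0.203, and 0.07 without control 2). H2-D1, a classical heavy chain, was at 49.6, 63.2 and 38.1 FPKM in the controls and 34.03, 42.8 and 50.7 FPKM in the STZ group (log2 ratio -0.23, SE 0.224, and -0.05 without control 2). H2-K1, the other classical heavy chain of the list, was at 7.24, 10.8 and 13.2 FPKM in the controls and 5.19, 13.8 and 19.6 FPKM in the STZ group. Both its highest and its lowest value came from STZ hearts. The log2 ratio of H2-K1 was 0.15 (SE 0.442, with a 95% interval from -0.90 to 1.20), and -0.07 without control 1. The ratio of H2-K1 to H2-D1 fell into a low range of 0.146 to 0.172 in control 1, control 2 and STZ 1 and a high range of 0.323 to 0.387 in control 3, STZ 2 and STZ 3, so it cut across the groups. The transcripts of H2-K1 and H2-D1 are 91.3% identical over 1050 bases, so reads could have been assigned to either gene. The mice were outbred, and the values rest on a single reference genome. The part of sequence differences from that reference in these values and ratios was not tested.

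Psmb8 and Psmb9 encode catalytic subunits that replace constitutive ones in the immunoproteasome, and they lie beside Tap1 and Tap2 on chromosome 17, with Psmb9 and Tap1 overlapping head to head. Psmb8 was at 0.89, 5.02 and 1.13 FPKM in the controls and 1.15, 1.15 and 1.12 FPKM in the STZ group. Control 2 alone was high, and the other 5 hearts lay within 0.89 to 1.15 FPKM. The log2 ratio of Psmb8 was -0.43 (SE 0.42) and 0.10 without control 2. Psmb9, below the filter, was at 0.438, 1.89 and 0.718 FPKM in the controls and 0.538, 0.374 and 0.943 FPKM in the STZ group, again with control 2 the highest. Tap1, a subunit of the peptide transporter, was at 1.40, 2.86 and 2.17 FPKM in the controls and 1.47, 1.23 and 2.48 FPKM in the STZ group (log2 ratio -0.21, and -0.04 without control 2). Tap2 was highest in control 2, at 4.69 FPKM, and its log2 ratio moved from -0.32 to 0.02 without it. Of the 6 tested genes of antigen presentation 5 were lower, with a median of -0.22, and without control 2 it was 2 of 6, with a median of 0.04. Over all genes tested the shares were 42.3% and 50.6%. Control 2 is the library with T cell and thymocyte transcripts (sum of 10 genes, 142 FPKM against 1.01 to 3.05 FPKM), and their part in its antigen presentation values was not tested.

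Relative to the constitutive subunit it replaces, Psmb8 stood at 0.0876 of Psmb5 in control 2 and at 0.0227 to 0.0428 in the other 5 hearts, and Psmb9 at 0.0309 of Psmb6 in control 2 and 0.00758 to 0.0219 in the others. The third immunoproteasome subunit gene, Psmb10, which is no member, was at 15.7 to 26.4 FPKM, and its ratio to Psmb7 ran from 0.606 to 1.03, with control 2 inside that range at 0.759.

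**Figure D4:**
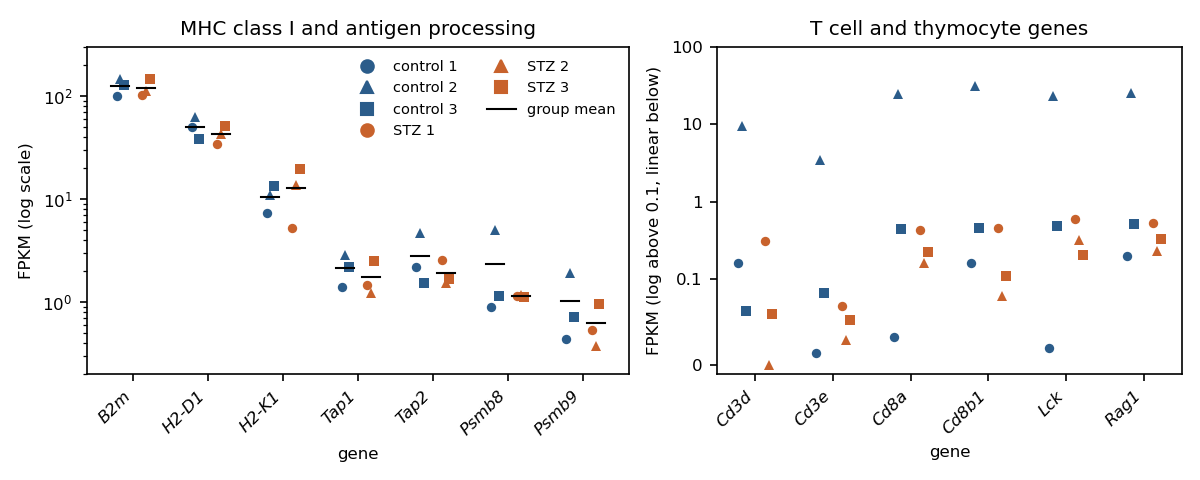
FPKM in each heart of 7 MHC class I and antigen processing genes (left, logarithmic y axis, with group means as lines) and of 6 T cell and thymocyte genes chosen after their values were seen (right, y axis logarithmic above 0.1 and linear below). Blue marks control and orange STZ hearts, the symbol the replicate number. Control 2 (blue triangle) was the highest heart for Psmb8, at 5.02 FPKM, and for all 6 genes on the right.

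Of the remaining induced genes, 5 of 6 tested were lower, with a median log2 ratio of -0.16, and without control 2 all 6 were lower, with a median of -0.21. Among all genes tested, 42.3% were lower, and 50.6% without control 2. Ifi27, which encodes a small mitochondrial and nuclear membrane protein, was at 4.82, 38.0 and 7.04 FPKM in the controls and 3.95, 3.73 and 5.11 FPKM in the STZ group. Control 2 was far above all others, and the log2 ratio of -1.22 (SE 0.66) moved to -0.39 without it. Lgals3bp, a secreted glycoprotein, was at 10.8, 8.65 and 13.4 FPKM in the controls and 10.01, 8.86 and 9.64 FPKM in the STZ group, and control 2 was here the lowest, so its log2 ratio moved from -0.17 to -0.31 without that library, and to -0.02 without control 3, the highest heart. Ifi35 was at 4.92 ± 0.866 and 4.35 ± 0.643 FPKM, Xaf1, a promoter of apoptosis, at 1.64 ± 0.343 and 1.45 ± 0.567 FPKM, and Parp14, an ADP-ribosyltransferase, at 2.29 ± 0.644 and 2.43 ± 0.452 FPKM. The log2 ratio of Parp14 turned from 0.07 to -0.10 without control 2. Ifi44 ranged from 0.146 to 0.671 FPKM. Cxcl10, the chemokine of activated T cells, had 0, 20 and 13 reads in control and 2, 5 and 6 reads in STZ hearts, and 0 reads in control 1 allow up to 0.0791 FPKM at 3 reads.

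Of the 13 untested members 12 had a lower mean in STZ hearts, and Ifih1 alone a higher one. The same count was not made over all genes below the filter or without control 2, so it is no result about these members. The highest value belonged to control 2 for 7 of them and to control 3 for 5. No untested member exceeded 1.89 FPKM or 148 reads in any heart.

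Set out by heart, the level of the 33 tested members, taken as the median over genes of log2(FPKM + 1), centred on each gene's 6-heart mean, was -0.09, 0.29 and 0.11 in control 1 to 3 and -0.25, -0.11 and 0.12 in STZ 1 to 3. The groups overlapped: control 1 lay between STZ 1 and STZ 3, and STZ 3 was level with control 3. For the antiviral effectors the level was -0.12, 0.56 and 0.29 against -0.38, -0.13 and -0.02, where control 1 again sat among the STZ hearts. Over all genes tested the level was 0.02, -0.07 and 0.02 in control 1 to 3 and 0.02, 0.02 and 0.01 in STZ 1 to 3. Within the groups, STZ 1 was below STZ 3 at 27 of 33 members and control 1 below control 3 at 28 of 33. These counts were not made over all genes tested, so they do not show that the members in particular moved together. Among the 5 hearts other than control 2, control 3 and STZ 3 each held the highest value of 13 members, and STZ 1 the lowest of 15. The median pairwise correlation between tested members over the 6 hearts was 0.401 (Pearson) and 0.314 (Spearman), a description over libraries that share depth, scale and cell make-up. By role the Spearman median ran from -0.03 for receptors and transcription factors to 0.743 for GTPases. No such value was computed for all genes.

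**Figure D5:**
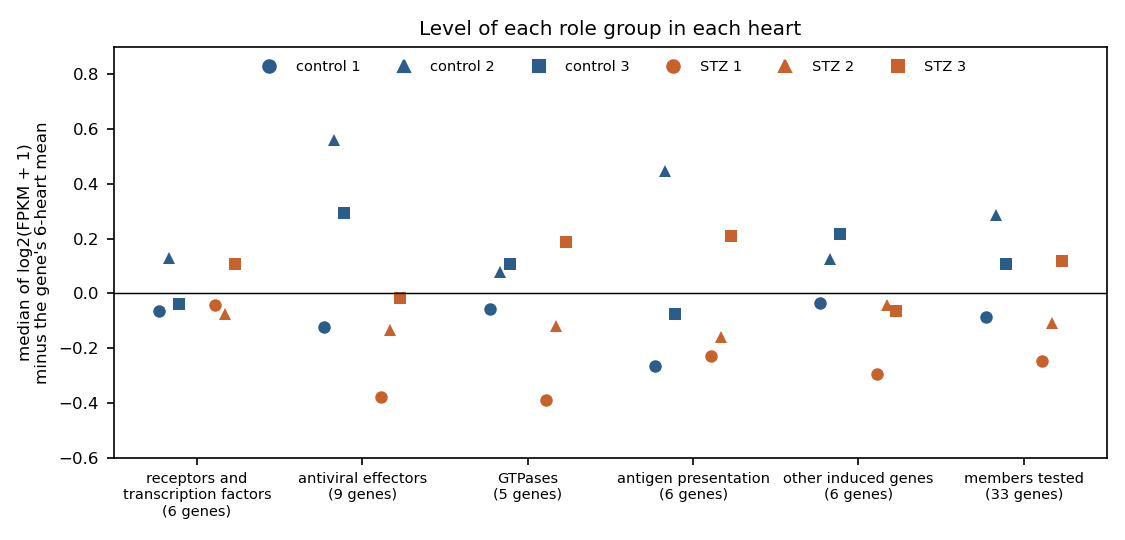
Level of 5 role groups and of all 33 tested genes in each heart (y axis: median over tested genes of log2(FPKM + 1), centred on the gene's 6-heart mean). Blue marks control and orange STZ hearts, the symbol the replicate number. The groups overlap in every column but that of the other induced genes, where the lowest control heart (-0.03) lies just above the highest STZ heart (-0.04).

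Markers of other cells also varied between groups and hearts, and their levels were not compared with those of the members heart by heart. Over all genes tested, 42.3% had a log2 ratio below 0, and 50.6% without control 2. Fibroblast markers summed to 377 to 606 FPKM in the controls and 347 to 353 FPKM in the STZ group, and all 5 had log2 ratios below 0, with a median of -0.37 and of -0.22 without control 2. Macrophage markers summed to 51.8 to 112 FPKM in the controls and 44.6 to 55.2 FPKM in the STZ group, and 8 of 8 tested were lower, with a median of -0.20 that was 0.04 without control 2. Endothelial markers summed to 151 to 274 and 224 to 273 FPKM, and their median was 0.0021. Erythroid markers summed to 14540 FPKM in control 2 and 2228 to 4925 FPKM elsewhere, and 5 of 5 tested were lower, with a median of -1.07 and of -0.33 without control 2. Epicardial markers summed to 62.5 FPKM in control 2 and 22.5 to 38.9 FPKM elsewhere, and 4 of 5 were lower, with a median of -0.52 and of -0.19 without control 2. All 3 tested atrial markers were lower, with a median of -1.69 that was 0.63 without control 2, and 0 of 6 cardiomyocyte markers were, with medians of 0.39 and 0.02. Of the 4 neutrophil markers 2 were tested and both were lower, with a median of -0.13 that was 0.20 without control 2. Of the 4 markers of plasmacytoid dendritic cells, the main source of type I interferon in blood, Siglech was at 0 FPKM in 4 hearts and at most 0.111 FPKM, in control 2, and Ccr9 at 2.91 FPKM in control 2 and at most 0.134 FPKM elsewhere. Tcf4 of that list was lowest in control 2, at 4.25 FPKM against 7.01 to 9.57 FPKM, and the last is Bst2, itself a member. Control 2 is also the library with T cell and thymocyte transcripts, and which cells carried its Ccr9 was not tested. The part of any of these cells in the members' differences was not tested.

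Other genes of the pathway, 80 in number and not members, were counted in the same way. Of these, 47 were tested, 20 were higher and 27 lower, with a median log2 ratio of -0.02, and none passed the threshold or had an unadjusted p under 0.05 (limma). The share lower over all genes tested was 42.3%. Of 7 interferon genes, the ligands, 6 had 0 reads in all hearts, which allows up to 3 reads per library, and Ifng had 3 reads in each of control 2 and control 3 and 0 in the rest. The receptors and kinases were 5 higher and 2 lower of 7, among them Ifngr1, a receptor subunit for interferon gamma, at 17.8 ± 4.35 and 14.6 ± 1.34 FPKM, and the kinase gene Jak1 at 22.1 ± 4.23 and 25.1 ± 2.42 FPKM. Of 31 further effectors 13 were tested, 6 higher and 7 lower, with a median of -0.02. Mx1, a GTPase that blocks influenza virus, stood at 0.0314 to 0.181 FPKM, and Nlrc5, the activator of class I genes, at 0.053 to 0.248 FPKM, both below the filter. Calr, a chaperone of class I assembly named after its values were seen, was the 1 tested gene of the list with every STZ heart below every control, at 87.4, 122 and 87.5 FPKM against 81.3, 82.4 and 76.8 FPKM. Of all genes tested, 3.62% did so. Among further genes of antigen presentation, 4 were higher and 7 lower, with a median of -0.14 and of 0.01 without control 2.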

How the data were processed

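RNA from 6 hearts was sequenced after SMARTER mRNA-seq library preparation, per the labels' protocols. The authors deposited 1 table of values per gene and sample on GRCm38 (mm10), per the submitters' processing notes. The values are read as FPKM as deposited, since value times gene length gave whole reads for 100% of values within 0.01 read, after a scale per library of 0.985 to 1.03 times the reads, and 1.21 in control 2. Aligner, counter and strandedness were not given in the sources used here.

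Genes that reached 1 FPKM in 3 or more samples were tested with limma 3.58.1 (R 4.3.3, trended variances) on log2(FPKM + 1), which understates changes of low genes, with BH adjustment over 12431 genes and checks on simulated data. Promoters came from RefSeq and overlapping genes from GENCODE M21, and blastn 2.17.0 compared transcripts. By position, 23 of the 46 members are overlapped by another gene. Among them, Irf9 is overlapped by Rnf31, Ifnar2 by Gm21970 and Igtp by Irgm2 on the same strand, and such reads are uncertain. The members and lists were chosen with earlier results of these data known. Values in every sample are given for a list of members chosen by name, for tested members that did not overlap between groups or had an unadjusted p under 0.05, and for members of at least 50 FPKM; other members given so were picked after their values were seen. Alternatives covered the pseudocount, filter, scaling, test, variance model, sample weights, replicate block and each library left out. Some items are not reported here.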

Additional observations from a re-analysis of the deposited data

How the results depend on the processing

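No member passed the threshold in any of the 16 settings, and the smallest adjusted p of a member was 0.509 (limma). Of 509 single-gene values, 481 kept their direction and 28, from 14 members, reversed. The cause of these changes was not tested unless the setting itself holds fewer genes or samples. Genes with a mean of at least 5 FPKM left 14 members, of which 9 were lower, and 2 other induced genes with a median of -0.696. The count of all genes past the threshold, 3, was 1 with voom on recovered reads, 8 with array weights and 2 to 5 with 1 library left out. Ifnar2 turned to -0.0107 with median-ratio scaling, -0.0414 with the scale of recovered reads and -0.0449 with voom. With array weights Ifitm1 was 0.263, Psmb8 0.0423, B2m 0.0779, Ifi35 0.0288 and Parp14 -0.0454. In that setting 22 of 33 members were lower with a median of -0.0454 in place of -0.174, while the antigen presentation median went from -0.215 to -0.023. Other settings moved the members' median further from 0. It was -0.205 with median-ratio scaling, -0.237 with the scale of recovered reads and -0.267 with voom, with 26 of 33 lower in each.

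Same-numbered samples had correlations of 0.021, -0.0406 and 0.092 in their deviations, and pairs of unlike number ran from -0.139 to 0.081. These values cannot show whether same-numbered samples shared a litter or a batch. With the replicate block, 0 genes passed the threshold.

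Leaving out each library in turn moved the members' median between -0.248 without control 1 and -0.0599 without control 2, with -0.0876 without STZ 1, and the number lower between 21 and 29 of 33. The antigen presentation median ran from -0.308 without STZ 3 to 0.0432 without control 2. The antiviral effectors' median ran from -0.645 without control 1 to -0.244 without control 2. Among genes that reversed, the ranges were Ddx58 from -0.00619 to 0.128, Ifnar2 from -0.0669 to 0.109, Ifit2 from -0.078 to 0.61, Eif2ak2 from -0.244 to 0.0418, Ifitm1 from -0.649 to 0.0997, Ifitm2 from -0.331 to 0.0011, Gbp7 from -0.169 to 0.215, Psmb8 from -0.741 to 0.0955, Tap2 from -0.562 to 0.0192, B2m from -0.205 to 0.0671, H2-K1 from -0.22 to 0.647, Xaf1 from -0.251 to 0.0793 and Parp14 from -0.0959 to 0.189. Lgals3bp, which kept its direction, ran from -0.311 to -0.0225. The 13 untested members had at most 148 reads in a heart, which limits what their values can show.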

Other observations

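Some genes of the wider pathway had values carried by single hearts, and all were chosen after their values were seen. The nonclassical class I gene H2-T23 was at 1.58 FPKM in STZ 1 and at 0.079 to 0.227 FPKM in the other 5 hearts. The nearby H2-T22 was at 2.58 FPKM in STZ 1 and 1.78 FPKM in control 2, against 0.201 to 0.426 FPKM elsewhere. For both genes the part of sequence differences from the reference genome was not tested. Socs1, which restrains cytokine signalling, was at 5.32 FPKM in control 2 and at 0.532 to 0.962 FPKM elsewhere. Ccl5, a chemokine of T cells, had 1, 2 and 0 reads in control 1 to 3 and 5, 6 and 7 reads in STZ 1 to 3, too low to be tested.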
